A study of Drosophila melanogaster with 34 samples.

Results

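The 5 sites described here are 18S Cm419, 28S Gm789, 28S Gm2243, 28S Gm2502 and 28S Cm3422, out of 72 positions of ribosomal RNA (rRNA) measured in Drosophila melanogaster. They were picked because their mean methylation score rose from heads of flies kept at 18 °C through 25 °C to 29 °C, so that rise is a description here and carries no test. The score is the authors' level score per site from RiboMeth-seq, on a scale that ends at 1, where values near 1 stand for a ribose that is strongly protected from alkaline cleavage. The series holds 34 libraries in 9 groups, 8 from S2R+ cells and 26 from female heads.

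S2R+ is a cultured Drosophila line, labelled as mesenchymal stem cells, a label that tables of rRNA positions cannot check. These cells received double-stranded RNA against Fibrillarin (Fib) or, as control, against the bacterial gene lacZ (4 libraries each). The temperature groups Heat_18, Heat_25 and Heat_29 were kept in darkness for 8 days (4 libraries each). The nutrient groups had 10 days on food with 0.25x sugar that was labelled "no a.a." (Nut_Low_s_aa, called low-nutrient food here) or on home-made 1x food (Nut_1x), 4 libraries each. The oxidative stress groups, labelled d17_PQ and d17_CTR, were fed 5% sucrose for 8 days, with paraquat at a labelled 2.5 nM or without it (3 libraries each). Strain, age, the number of heads in a library, and the temperature of the nutrient and paraquat experiments are not stated in the labels. The tables hold no messenger RNA, so the level of Fib and the makeup of the heads were not measured. In bulk RNA from heads, a change in the cells present and a change within cells cannot be told apart.

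2′-O-methylation adds a methyl group to the ribose of an RNA nucleotide and blocks hydrolysis of the bond beside it. In rRNA most such sites are set by box C/D particles. Their guide snoRNA pairs with the target and their enzyme Fibrillarin transfers the methyl group. Many rRNA sites are methylated in nearly all ribosomes, and sites methylated in only a part of them are a known source of differences between ribosomes.

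One of the 5 sites lies in 18S rRNA, the RNA of the small subunit, and 4 lie in 28S rRNA, part of the large subunit. The methylated base is G at 3 of them and C at 2, while the 72 sites hold 21 G, 14 C, 28 A and 9 U. A single guide identifier is listed for 18S Cm419 (FBgn0086533), 28S Gm789 (FBgn0020518), 28S Gm2243 (FBgn0086028) and 28S Cm3422 (FBgn0086069), as it is for 23 of the 72 sites. None of these identifiers was listed for another site. 28S Gm2502 is one of 11 sites annotated as of unknown guide. The RefSeq gene table (Release 6) holds 1 gene with a symbol naming one of these positions, snoRNA:Me18S-C419 on chromosome 3L from 27267954 to 27268023, although it does not pair that symbol with the listed identifier. A second site name in the tables gives 28S Cm3422 as Cm3421, and the other 4 sites carry the same number in both names.

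The sites differ in how isolated they are. 28S Gm2243 and 28S Gm2502 have no other listed site within 10 nucleotides, and their nearest ones are 39 and 96 nucleotides away. 28S Cm3422 has 3 within that distance, 28S Gm789 has 2 and 18S Cm419 has 1. Of these 6 neighbours, none had all 29 °C libraries above all 18 °C libraries, which held at only 12 of all 72 sites (16.7%). Means in the order 18, 25, 29 °C were also seen at the neighbours 28S Cm3412 and 28S Am796. At 28S Cm3412 all 29 °C libraries were above all 25 °C libraries. The largest rise among the 6 was at 28S Cm3412, by 0.0148, from 0.962 ± 0.0103 to 0.977 ± 0.00135 (SD, n = 4 each). At 28S Am3420, only 2 nucleotides from 28S Cm3422, the means were 0.991 at both temperatures.

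Between libraries, the median coverage of a site was 28370.5 to 104242 reads. In the temperature groups it was 43515.5 to 97235.5 at 18 °C, 64488.5 to 80583.5 at 25 °C and 67403 to 104242 at 29 °C, and the lowest value belonged to Heat_18 replicate 3. 18S Cm419 was the least covered of the 5 sites, with 7466 to 24615 reads over the position, and 28S Gm2502 the most, with 82623 to 276008. Single libraries gave as few as 6 5′ ends and 15 3′ ends at 18S Cm419, and as few as 4 5′ ends, with at least 139 3′ ends, at 28S Cm3422. No confidence interval was computed for a single library, because no source used here gives the formula of the score.

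With rising temperature, the 5 scores moved up by 0.0199 to 0.0641 between 18 and 29 °C. The largest rise was that of 28S Cm3422. Its scores were 0.925, 0.843, 0.938 and 0.913 at 18 °C, 0.936, 0.932, 0.941 and 0.928 at 25 °C, and 0.972, 0.966, 0.969 and 0.969 at 29 °C. All 29 °C libraries lay above the others, while 18 and 25 °C overlapped. The mean of 0.905 ± 0.0424 at 18 °C leaned on replicate 2. Without that library it was 0.925 and the rise was 0.0435, against 0.0641 with it.

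28S Gm2243 rose by 0.0393. It scored 0.943, 0.947, 0.953 and 0.943 at 18 °C, 0.970, 0.961, 0.962 and 0.962 at 25 °C, and 0.987, 0.983, 0.987 and 0.987 at 29 °C. The 3 groups did not overlap. Seen from the other end of the scale, the distance of the score from 1 shrank from 0.0534 ± 0.00486 to 0.0141 ± 0.00222 (SD, n = 4 each), by a factor of 3.798, the second largest of the 72 sites. By this factor 28S Cm3422, 28S Gm2502, 28S Gm789 and 18S Cm419 ranked 4, 5, 8 and 11. Outside the choice, 28S Gm1005, 18S Gm475, 5.8S Gm74 and 28S Cm2744 ranked 1, 3, 6 and 7.

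28S Gm2502, the site of unknown guide, had the highest scores at 18 °C and the smallest rise. Its libraries stood at 0.968, 0.964, 0.971 and 0.958 at 18 °C, at 0.975, 0.976, 0.977 and 0.974 at 25 °C, and at 0.987, 0.985, 0.982 and 0.985 at 29 °C. Its groups were also separate, and the distance from 1 fell from 0.0349 to 0.0150, by a factor of 2.32.

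28S Gm789 rose by 0.0471. It scored 0.925, 0.926, 0.883 and 0.916 at 18 °C, 0.951, 0.942, 0.949 and 0.927 at 25 °C, and 0.961, 0.960, 0.955 and 0.963 at 29 °C. The groups were separate, although the highest 18 °C library, at 0.9263, almost met the lowest 25 °C library, at 0.9271. Replicate 3 at 18 °C was the low one here, and without it the rise was 0.0373.

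18S Cm419 rose by 0.0347 with overlapping groups. Its scores were 0.920, 0.925, 0.960 and 0.908 at 18 °C, 0.960, 0.945, 0.942 and 0.931 at 25 °C, and 0.969, 0.959, 0.962 and 0.961 at 29 °C. Replicate 3 at 18 °C was in this case the high one, level with the 29 °C libraries, and without it the rise was 0.0454. The same library was also the highest of its group at 28S Gm2243, 28S Gm2502 and 28S Cm3422, although it was the lowest at 28S Gm789. Its coverage was the lowest of the temperature groups, and the part of coverage in these values was not tested.

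**Figure D1:**
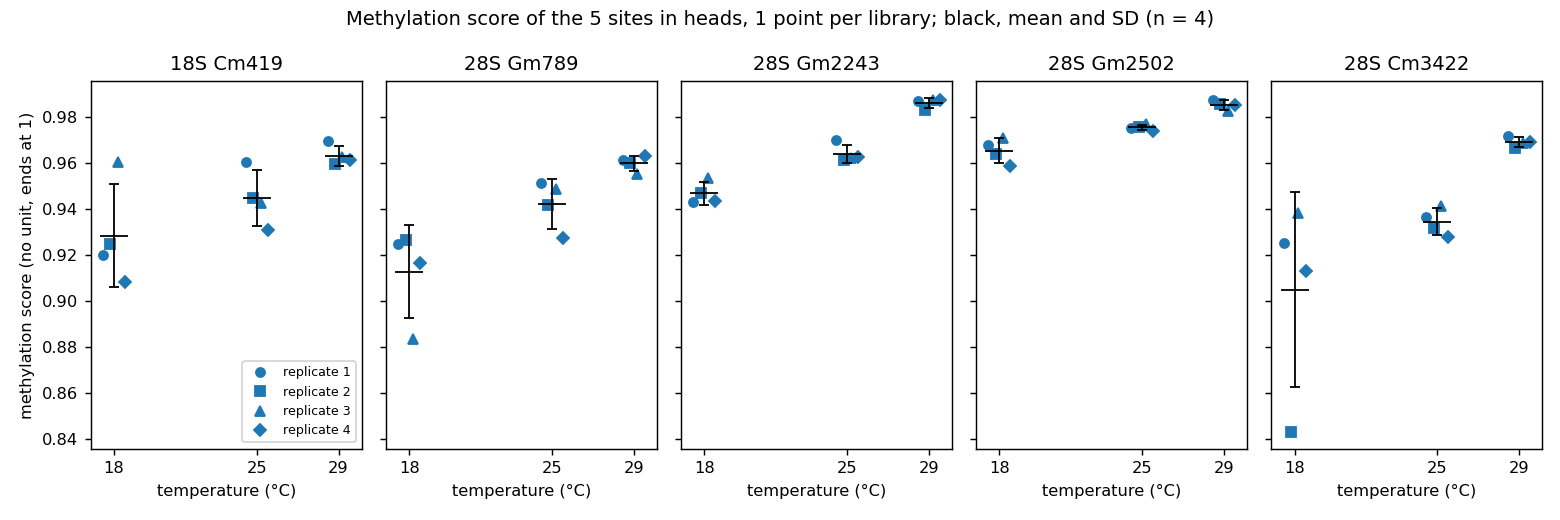
Methylation score (vertical axis, no unit) against temperature in °C for the 5 sites, 1 point per head library with its replicate number as shape, and the mean with SD in black (n = 4). All 29 °C points lie above all 18 °C points except at 18S Cm419, where Heat_18 replicate 3 reaches 0.960.

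How many sites share the order of the 3 means depends on the scaling, while the 5 keep it either way. Of the 72 sites, 32 had means in the order 18, 25, 29 °C (44.4%), and 14 after centring on library medians. Library median scores were 0.970 to 0.977 at 18 °C, 0.975 to 0.978 at 25 °C and 0.977 to 0.983 at 29 °C. After centring, the rises of the 5 sites were smaller, from 0.0142 at 28S Gm2502 to 0.0584 at 28S Cm3422. Without centring, by size of the rise, the 5 sites ranked 1, 5, 6, 8 and 11 among these 32. All 29 °C libraries were above all 18 °C libraries at 12 of 72 sites (16.7%), 4 of them among the 5. All 29 °C libraries were above all 25 °C libraries at 15 of 72 sites (20.8%), again 4 of them among the 5. Complete separation in order was seen at 4 of 72 sites (5.56%). These were 28S Gm789, 28S Gm2243, 28S Gm2502 and, outside the choice, 18S Gm475. The median rise from 18 to 29 °C was 0.0393 over the 5 sites and 0.00262 over all 72, but the 5 were picked on these values.

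No cut on size separated the chosen sites from the rest. The 5 other sites with the largest rises in the same order were 18S Gm475, 18S Gm1952, 28S Gm1005, 18S Am1272 and 18S Am549, with rises of 0.0595, 0.0512, 0.0499, 0.0356 and 0.0223. At 18S Gm475 the 18 °C libraries ran from 0.819 to 0.951, the 25 °C libraries from 0.956 to 0.964 and the 29 °C libraries from 0.968 to 0.977. At 3 of these sites replicate 3 at 18 °C was the low library, with 0.819 at 18S Gm475, 0.792 at 28S Gm1005 and -0.207 at 18S Gm1952. Without it the difference between 29 and 18 °C was 0.0281 at 18S Gm475, 0.00304 at 28S Gm1005 and -0.0424 at 18S Gm1952, so the last of these turned. 18S Am1272 moved almost wholly between 25 and 29 °C, by 0.0348. The 5 chosen sites gained at both steps, as the rule requires, by 0.0102 to 0.0295 from 18 to 25 °C and by 0.00965 to 0.0346 from 25 to 29 °C.

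**Figure D2:**
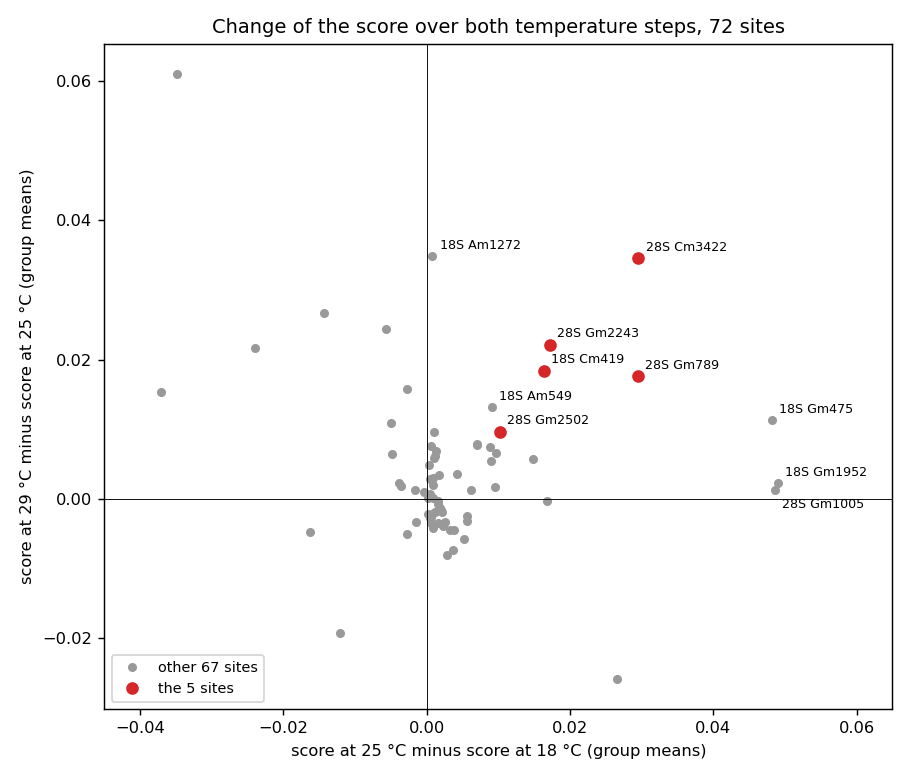
Difference of group means between 25 and 18 °C (horizontal axis) and between 29 and 25 °C (vertical axis), in units of the score, with 1 point per site for all 72 sites. The 5 chosen sites, in red, are positive on both axes. The lower-step values of 18S Gm475, 18S Gm1952 and 28S Gm1005 include Heat_18 replicate 3, without which they are 0.0168, -0.0447 and 0.00174.

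Both 5′ and 3′ read ends were fewer on average at 29 than at 18 °C at all 5 sites, in differing proportion. Ends were taken per 1000 reads of coverage, and since they were deposited for the same libraries they are described without a test. The sites were picked for a higher score at 29 °C, and a high score stands for little cleavage. Fewer ends at 29 °C are therefore no separate evidence. How many of the 72 sites have fewer of both ends was not counted. At 28S Gm2243 most ends were 5′ ends, 91.0% of them at 18 °C and 81.4% at 29 °C. These 5′ ends numbered 7.10, 7.24, 6.17 and 8.33 per 1000 at 18 °C, 4.37, 5.23, 4.87 and 4.62 at 25 °C, and 1.62, 2.36, 1.58 and 1.62 at 29 °C. The groups were separate, and the mean was 4.01 times as high at 18 as at 29 °C. The 3′ ends at the same site were few, with means per 1000 of 0.705 ± 0.173, 0.708 ± 0.231 and 0.396 ± 0.0521 (SD, n = 4 each) in order of temperature.

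At 28S Cm3422 the balance was the opposite, with 3′ ends the larger part. They numbered 5.15, 9.94, 3.35 and 5.78 per 1000 at 18 °C, 4.15, 4.40, 3.78 and 4.15 at 25 °C, and 2.005, 2.15, 2.08 and 2.07 at 29 °C. The low score of Heat_18 replicate 2 thus went with the highest 3′ end rate of its group. The 5′ ends were scarcer and dropped further in proportion, from 0.862 ± 0.279 to 0.177 ± 0.0350 per 1000, a ratio of 4.87.

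28S Gm2502 had similar numbers of both ends at 25 °C, and its 5′ ends changed more. They went from 3.18 ± 0.609 through 2.15 ± 0.0824 to 0.871 ± 0.146 per 1000, while 3′ ends went from 2.23 ± 0.321 through 1.70 ± 0.0508 to 1.501 ± 0.248 (SD, n = 4 each). At 25 and 29 °C the 3′ ends overlapped, and the 5′ ends did not.

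At 28S Gm789 the 5′ ends were 5.72 ± 1.90, 5.09 ± 1.33 and 3.02 ± 0.275 per 1000 at the 3 temperatures, and 18 and 25 °C overlapped widely. The low score of Heat_18 replicate 3 at this site came with 11.1 3′ ends per 1000, against 3.05 to 3.88 in the other 18 °C libraries, while its 5′ ends, at 4.03, were the fewest of the group. At 18S Cm419 the 5′ ends were 2.70 ± 1.26, 1.54 ± 0.633 and 1.04 ± 0.125 per 1000 and the 3′ ends 5.41 ± 1.51, 5.04 ± 1.20 and 3.23 ± 0.423. Neither end separated 18 from 25 °C there.

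**Figure D3:**
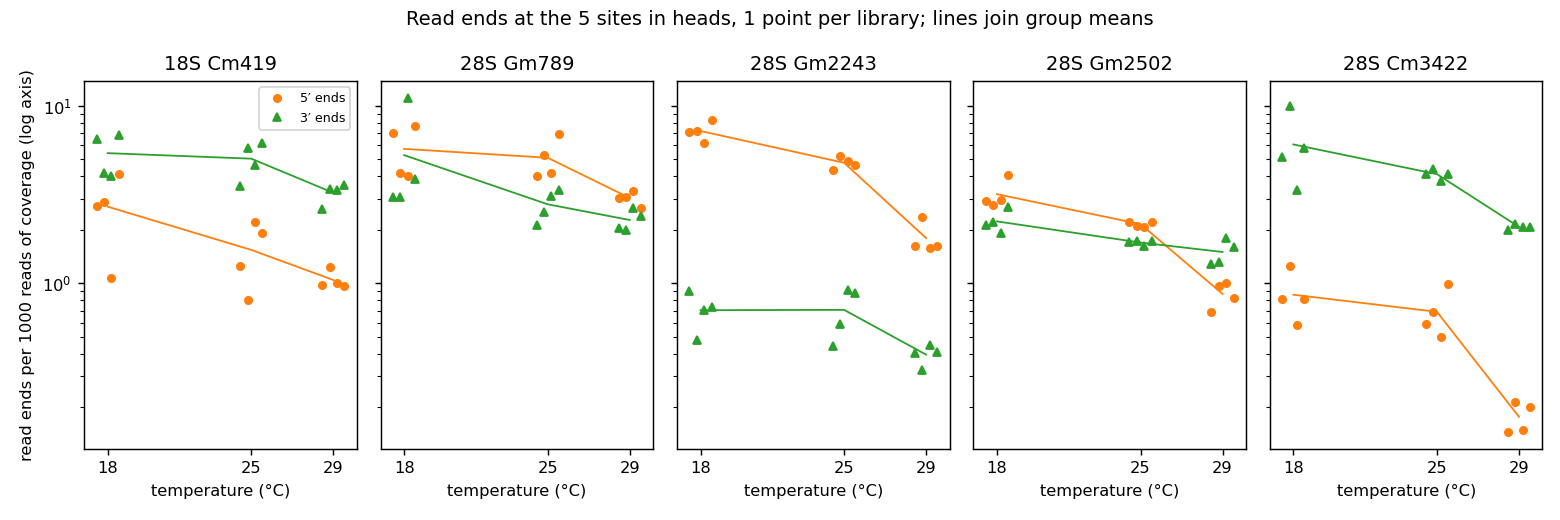
Read ends per 1000 reads of coverage (vertical log axis) against temperature in °C for the 5 sites, with 5′ ends as orange circles, 3′ ends as green triangles, 1 point per library and lines through the group means. 5′ ends outnumber 3′ ends at 28S Gm2243 and the reverse holds at 28S Cm3422, and both kinds are lower on average at 29 than at 18 °C at all 5 sites. How many of the sites not shown share this fall was not counted.

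Diet gives a comparison on which the sites were not picked. One of its libraries, low-nutrient replicate 4, stood apart over all sites, with a median score of 0.963 against 0.978 to 0.983 in the rest of its group. On low-nutrient food 28S Gm789 was lower than on 1x food and the other 4 sites did not pass the test. 28S Gm789 scored 0.934, 0.940, 0.933 and 0.941 on low-nutrient and 0.948, 0.954, 0.952 and 0.955 on 1x food. The groups did not overlap, and the difference was -0.0153 ± 0.00301 (SE; 95% interval -0.0223 to -0.00832; adjusted p = 0.0250, limma with Benjamini-Hochberg adjustment over 72 sites). In all, 3 of 72 sites were called lower (4.17%) and 0 higher in limma, with 11 (15.3%) at an unadjusted p under 0.05. The call at 28S Gm789 depended on the scale and on single libraries, although it held on the third deposited score. On the log2 odds of the score its adjusted p was 0.120, on scores centred on library medians 0.279 and on the second deposited score 0.0520. It was 0.109, 0.0536 and 0.0829 without low-nutrient replicate 1, 2 or 3, and 0.0945 and 0.0977 without 1x food replicate 3 or 4. Without low-nutrient replicate 4 the difference was -0.0165 (adjusted p = 0.0264). The 5′ ends at 28S Gm789 numbered 5.94, 5.48, 6.06 and 4.60 per 1000 on low-nutrient and 4.90, 3.65, 3.65 and 4.52 on 1x food, which overlapped and were not tested.

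At the other sites the groups overlapped. 18S Cm419 scored 0.963, 0.963, 0.962 and 0.926 on low-nutrient and 0.917, 0.962, 0.937 and 0.939 on 1x food, a difference of 0.0149 with a 95% interval from -0.0120 to 0.0417. 28S Cm3422 scored 0.963, 0.963, 0.963 and 0.946 against 0.934, 0.964, 0.952 and 0.957, a difference of 0.00706 with an interval from -0.00911 to 0.0232. Low-nutrient replicate 4 was the low library at both of these sites, and without it the differences were 0.0240 and 0.0112 (adjusted p = 0.234 and 0.385, limma). For 28S Gm2243 the difference was 0.00471 (95% interval -0.00230 to 0.0117) and for 28S Gm2502 -0.000786 (-0.00646 to 0.00489). Without replicate 4, which was also the lowest of its group at 28S Gm2502, these were 0.00465 and 0.000243.

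Paraquat is a herbicide that provokes oxidative stress. None of the 5 sites passed between paraquat and sucrose heads, nor did any of the 72 (0 higher and 0 lower, 0% each, in limma; 8, or 11.1%, at an unadjusted p under 0.05, and 1 passed on the log2 odds scale). 28S Gm789 came nearest. It scored 0.966, 0.967 and 0.966 on sucrose and 0.961, 0.954 and 0.963 with paraquat. All paraquat libraries were below all sucrose libraries, yet the difference of -0.00740 did not pass (95% interval -0.0141 to -0.000678, adjusted p = 0.352, limma).

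The other 4 sites overlapped between the groups. Their differences were 0.00124 at 18S Cm419 (95% interval -0.0226 to 0.0251), -0.000750 at 28S Gm2243 (-0.00759 to 0.00609), -0.00171 at 28S Gm2502 (-0.00844 to 0.00501) and -0.000730 at 28S Cm3422 (-0.00818 to 0.00672). The interval was widest at 18S Cm419, the least covered of the 5. The 5′ ends at 28S Gm789 were 3.85, 5.48 and 4.21 per 1000 with paraquat and 3.70, 3.20 and 3.38 on sucrose, which did not overlap and were not tested.

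Across all head groups the levels are a description, since the low place of 18 °C and the high place of 29 °C among the temperature groups chose the sites. Heat_18 had the lowest group mean of the 7 head groups at each of the 5 sites. Heat_29 had the highest at all except 28S Gm789, where sucrose was higher, at 0.966 ± 0.000858 (n = 3) against 0.960 ± 0.00331 (n = 4). How many of the 72 sites have Heat_18 lowest or Heat_29 highest was not counted, so these places may not be particular to the 5. At 28S Gm2243 all sucrose and all 1x food libraries scored above all 25 °C libraries, with a lowest value of 0.973 on 1x food and 0.982 on sucrose against a highest of 0.970 at 25 °C. The same held there for low-nutrient food and paraquat, with lowest values of 0.983 and 0.982. At 28S Cm3422 all sucrose libraries, at 0.957 or more, were above those at 25 °C, which reached 0.941, while 1x food overlapped with 25 °C. Low-nutrient and paraquat libraries at this site, with lowest values of 0.946 and 0.957, were also above those at 25 °C. At 28S Gm789 all sucrose and paraquat libraries, with lowest values of 0.966 and 0.954, were above those at 25 °C, which reached 0.951. At 28S Gm2502 this held for sucrose alone, at 0.978 or more against at most 0.977 at 25 °C. How many of the 72 sites show such a separation was not counted. Neighbouring groups in the order of means mostly overlapped, so most single steps of that order are within the spread between libraries. The head experiments differ in food, and only the temperature groups are labelled as kept in darkness. The sucrose and paraquat libraries also have their own run of library numbers, so these factors cannot be told apart across experiments.

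**Figure D4:**
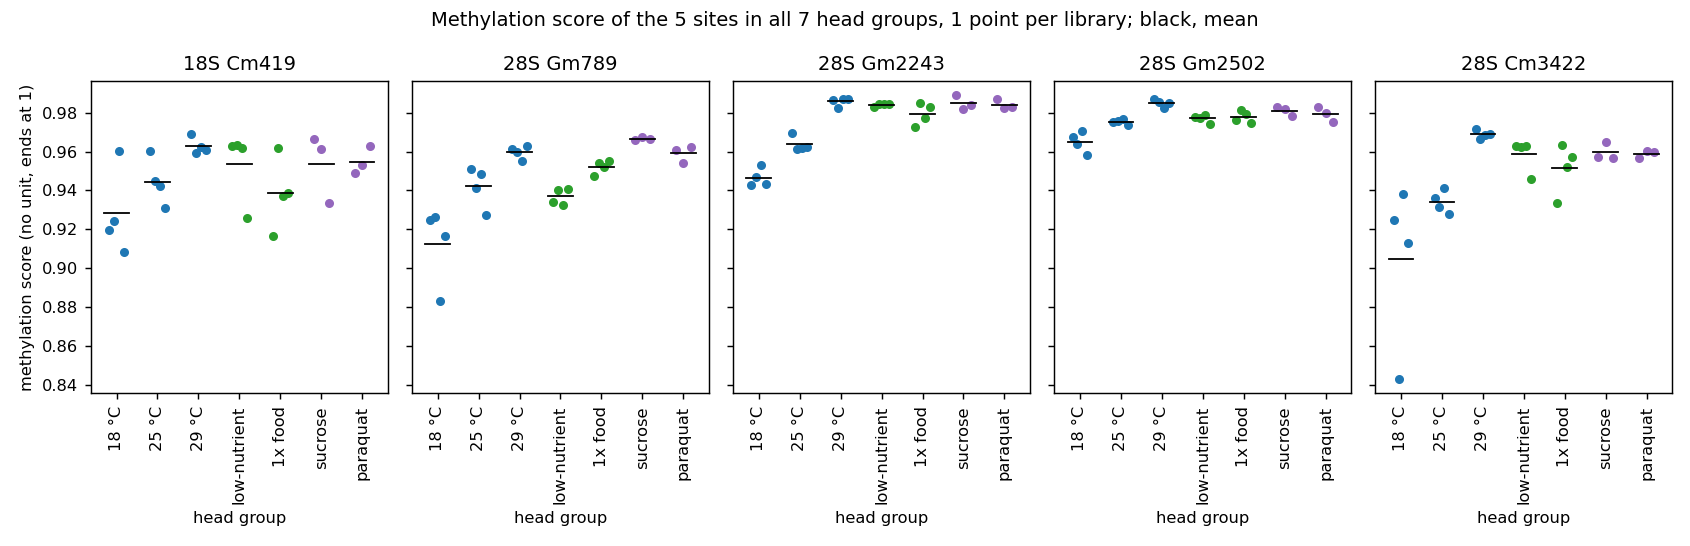
Methylation score (vertical axis, no unit) of the 5 sites in the 7 head groups, 1 point per library with the group mean in black, coloured by experiment. The 18 °C group has the lowest mean at every one of the 5 sites. At 28S Gm2243 the points of both nutrient groups, sucrose and paraquat lie above those at 25 °C. How many of the sites not shown share either pattern was not counted.

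Over the 26 head libraries, 28S Gm2243, 28S Gm2502 and 28S Cm3422 varied most alike among the 5. Pearson's r of the score was 0.852 between 28S Gm2243 and 28S Gm2502, 0.802 between 28S Gm2243 and 28S Cm3422, and 0.791 between 28S Gm2502 and 28S Cm3422. These values are descriptions with no test, over libraries that also share the groups on which the sites were picked. 28S Gm789 was closest to 28S Cm2744 (r = 0.794) and then to 28S Gm2243 (0.733), and had r = 0.524 with 28S Cm3422. 28S Cm2744 was also the second closest to 28S Gm2243 (0.842), and 5.8S Gm74 the closest to 28S Gm2502 (0.856). 28S Cm2744 and 5.8S Gm74 also had means in the order 18, 25, 29 °C, with rises of 0.0164 and 0.0144. At both, all 29 °C libraries were above all 18 and all 25 °C libraries. 18S Cm419 was nearest to other C sites, 28S Cm3412 (0.841) and 18S Cm1367 (0.804), and its r with the other 4 ran from 0.339 with 28S Gm789 to 0.721 with 28S Gm2502.

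Fib knockdown in S2R+ cells asks whether the sites depend on the methyltransferase. All 5 fell, with differences from -0.186 to -0.399, each larger than the change of the same site between 18 and 29 °C in heads. Falls were the rule, since 58 of 72 sites (80.6%) were called lower and 0 higher, so the count alone sets the 5 sites apart in nothing. Their median change was -0.255, against -0.143 over the 72 sites.

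28S Gm2502 fell most of the 5 and sixth of all 72, although no guide is listed for it. It scored 0.916, 0.910, 0.909 and 0.930 in LacZ cells and 0.599, 0.580, 0.441 and 0.447 in Fib cells. The difference was -0.399 ± 0.0389 (SE; n = 4 each; adjusted p = 8.42e-05, limma). Its 5′ ends went from 6.82 ± 0.753 to 44.9 ± 7.49 per 1000 reads of coverage and its 3′ ends from 4.78 ± 1.50 to 19.9 ± 2.66 (SD).

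18S Cm419 had the highest control level of the 5 and the widest spread after knockdown. Its scores were 0.962, 0.973, 0.956 and 0.970 in LacZ and 0.782, 0.773, 0.544 and 0.529 in Fib cells, a difference of -0.308 ± 0.0634 (SE; adjusted p = 0.00236, limma). Replicates 3 and 4 of the Fib group were far below replicates 1 and 2. The 5′ ends were 12.7 times as frequent after knockdown, at 13.7 against 1.08 per 1000, the largest such ratio of the 5.

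28S Gm789 went from 0.882, 0.878, 0.890 and 0.936 to 0.665, 0.672, 0.631 and 0.598. Its difference of -0.255 ± 0.0206 (SE) had the smallest adjusted p of the 5, 5.05e-05 (limma). 28S Gm2243 went from 0.943, 0.946, 0.944 and 0.965 to 0.762, 0.754, 0.657 and 0.644, a difference of -0.245 ± 0.0293 (SE; adjusted p = 0.000216, limma). 28S Cm3422 changed least, from 0.868, 0.886, 0.907 and 0.913 to 0.734, 0.717, 0.708 and 0.670, a difference of -0.186 ± 0.0167 (SE; adjusted p = 7.65e-05, limma). At none of the 5 did a Fib library overlap with a LacZ library, though how many of the other sites share this was not counted. Centred on library medians, scores of 25 sites were lower and 30 higher, and 28S Cm3422 was not called (-0.0410, adjusted p = 0.0502).

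The libraries of each cell group came in 2 runs of library numbers, replicates 1 and 2 (set A) and replicates 3 and 4 (set B). All 5 sites fell in each set and fell further in set B. In set A the changes were -0.190 at 18S Cm419, -0.211 at 28S Gm789, -0.187 at 28S Gm2243, -0.323 at 28S Gm2502 and -0.151 at 28S Cm3422. In set B they were -0.426, -0.299, -0.304, -0.476 and -0.221 in the same order. The difference between the sets was largest at 18S Cm419, at -0.236 ± 0.0132 (SE; adjusted p = 8.22e-05, limma interaction), and smallest at 28S Cm3422, at -0.0697 ± 0.0207 (adjusted p = 0.0287). A deeper fall in set B was called at 40 of 72 sites (55.6%), the 5 among them. It rests on 2 libraries a group in each set. On the log2 odds scale it was called at 12 of 72 sites and at 2 of the 5, 18S Cm419 and 28S Gm2502. With a single library left out, the call at 28S Gm789 was lost without replicate 1 or 2 of LacZ or replicate 1, 2 or 4 of Fib, and that at 28S Cm3422 without LacZ replicate 1 or 4 or Fib replicate 1 or 4 (highest adjusted p = 0.0789 and 0.0965).

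**Figure D5:**
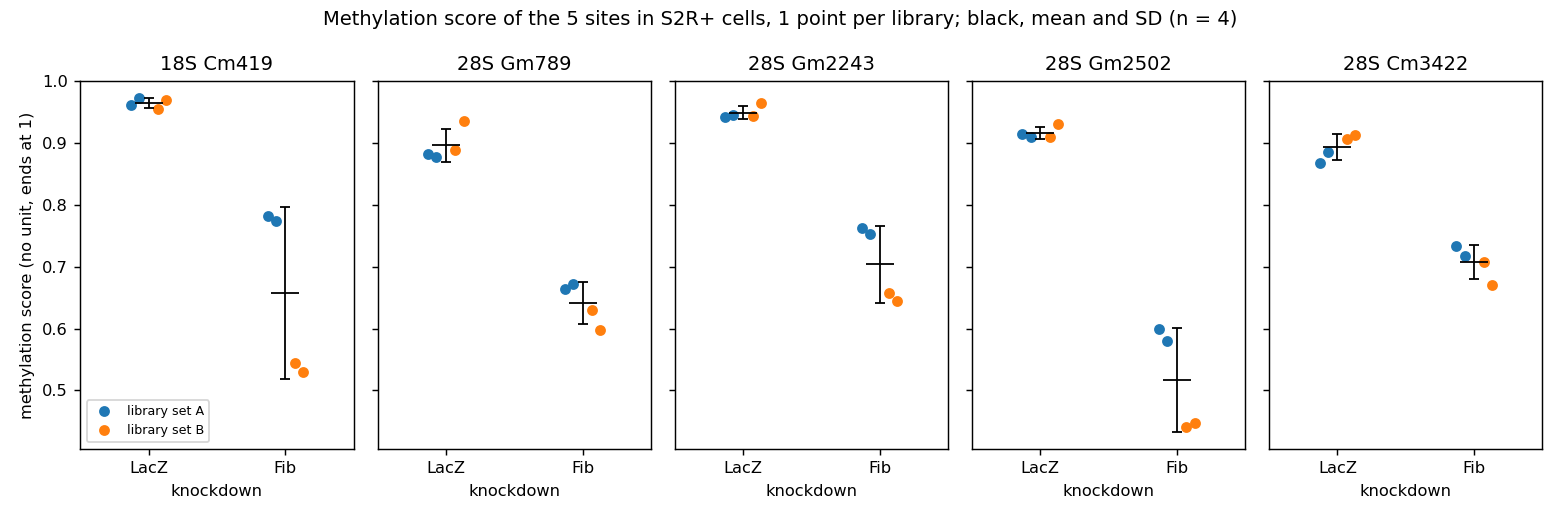
Methylation score (vertical axis, no unit) of the 5 sites in LacZ and Fib knockdown S2R+ cells, 1 point per library, with library set A in blue, set B in orange and the mean with SD in black (n = 4). Every Fib point is below every LacZ point, and set B is the lower set after knockdown at all 5 sites. How many of the sites not shown have such a separation was not counted.

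Control cells were set against control heads on sucrose and on 1x food, leaving out 25 °C because the temperature groups had served to pick the sites. The 4 28S sites were lower in LacZ cells. 28S Gm2502 was at 0.916 ± 0.00963 in cells (n = 4) and at 0.979 in the mean of both head groups, a difference of -0.0631 ± 0.00398 (SE; adjusted p = 7.53e-07, limma). 28S Gm789 differed by -0.0631 and 28S Cm3422 by -0.0623 (adjusted p = 0.000343 and 0.000209, limma), and 28S Gm2243 by -0.0327 (adjusted p = 0.000183). At each of these 4 sites the cell and head libraries did not overlap, though how many of the 72 sites share this was not counted. Lower scores in cells were called at 49 of 72 sites (68.1%) and higher ones at 1 (1.39%).

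18S Cm419 was the exception among the 5. Its LacZ mean was 0.965 ± 0.00795 and its head mean 0.946, a difference of 0.0190 that did not pass (95% interval -0.00116 to 0.0391, adjusted p = 0.0872, limma). It was called higher in cells when 25 °C heads joined the controls (0.0195, adjusted p = 0.0433), without 1x food replicate 2 (0.0229, adjusted p = 0.0276) and on centred scores (0.0479, adjusted p = 0.000532). Centring also turned the split of all calls to 17 lower and 32 higher, and 28S Gm2243 was then not called (-0.00381, adjusted p = 0.408). No run of library numbers held both cells and heads, so tissue and library set cannot be told apart.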

How the data were processed

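RiboMeth-seq libraries were read with 50-base single reads after hydrolysis of 150 ng of total RNA for 16 min at 96 °C, per the labels' protocols. That text names only S2R+ cells. The submitters' processing notes name Trimmomatic 0.39, Bowtie2 and dm6; no source used here states the alignment target or the score formula. The authors deposited, per library, a table of 72 sites with 3 scores on scales ending at 1, of which the column scoreC2 is called the methylation score. The deposited coverage signal is reads over the position and the read-end signals are whole numbers, both unnormalized, with 0.1 for none (at no site of the 5).

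Each comparison was fitted over all 72 sites with limma 3.58.1 in R 4.3.3 on the linear score, two-sided, with Benjamini-Hochberg adjustment and a threshold of 0.05, and checked on simulated data. Tables were made in Python 3.11.15 with pandas 2.3.3, numpy 2.4.6 and scipy 1.17.1. Cells against heads contrasted LacZ with the mean of the sucrose and 1x food group means. Groups and replicate numbers came from the labels; library sets came from runs of library numbers. Named sites were the 5, the 5 largest other rises in the same order, and for each of the 5 the 2 closest by Pearson's r; neighbouring sites and 28S Cm2744 or 5.8S Gm74 follow from those rules or from position. The 5 sites and the choice of comparisons were made with earlier results of these data known.

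Whether replicates came from separate cultures or pools of flies is not stated, so p-values measure the spread between these libraries, which may be technical. In all 48 within-group pairs the read ends differed by more than sampling noise (chi-square over degrees of freedom at least 1.78, p at most 3.66e-08). In the knockdown, same-numbered Fib and LacZ libraries deviated together (r = 0.574, 0.523, 0.165 and 0.354). These deviations are from means over both library sets, so they cannot tell pairing by number from a shared set. The p-values given are from the fit without pairs, and a block on the replicate number changed no call at the 5 sites.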

Additional observations from a re-analysis of the deposited data

Results flagged for a closer look

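Among 35 combinations of a site and a group of 4 libraries, 5 had a library far from the others, by a cut set for about 1 in 20 by chance. The combinations share libraries and only the 5 sites were searched. The count is therefore no measure of an excess, and the share over all 72 sites is not known. 28S Gm2243 accounts for 3 of the 5 flagged combinations. LacZ replicate 4 stood at 0.965 against 0.943 to 0.946, Heat_25 replicate 1 at 0.970 against 0.961 to 0.962, and Heat_29 replicate 2 at 0.983 against 0.987 in the other libraries. On low-nutrient food replicate 4, whose median score over all 72 sites was 0.963 against 0.978 to 0.983 in the rest of its group, was low at 18S Cm419 and 28S Cm3422, at 0.926 against 0.962 to 0.963 for 18S Cm419 and at 0.946 against 0.963 in all other libraries for 28S Cm3422.

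The knockdown effect differed between the 2 library sets at all 5 sites by the test of the difference itself (limma). Set B minus set A was -0.236 at 18S Cm419, -0.0871 at 28S Gm789, -0.117 at 28S Gm2243, -0.152 at 28S Gm2502 and -0.0697 at 28S Cm3422.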

How the results depend on the processing

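The order 18, 25, 29 °C of the group scores held at all 5 sites with each of the other settings. These were the other 2 deposited scores, group medians, centring on library medians, and leaving out each of 12 libraries. The 5 were picked for this order in the same libraries, so its holding there is a description and no separate evidence. Over all 72 sites the order held at 32, at 14 after centring, and at 25 to 35 with 1 library left out. The 5 knockdown calls held throughout, except at 28S Cm3422 after centring; all sites called were 57 to 59 with 1 library left out and 60 with the replicate block. For low-nutrient food, 0 of the 5 were called on the log2 odds, centred and second deposited score scales, and 0 to 1 with 1 library left out; of all 72 sites 0, 4 (2 lower, 2 higher) and 1 were called in those settings, and 1 to 6 with 1 library left out (1 without low-nutrient replicate 1 or 2 or 1x food replicate 4, and 6, with 3 higher, without 1x food replicate 2). On the third deposited score 1 of the 5 and 4 of all 72 sites (3 lower, 1 higher) were called. The replicate block left 1 of the 5 called (28S Gm789, adjusted p = 0.0343, limma). Same-numbered libraries of these groups hardly deviated together (r from -0.117 to 0.162). For paraquat the log2 odds gave 1 site of 72, and 1 library left out 0 to 1 (1 without paraquat replicate 3); the replicate block gave 0. For cells against heads 4 to 5 of the 5 and 42 to 49 of all sites were called with 1 library left out. For the sets of the knockdown, the 5 calls became 2 on log2 odds and 3 after centring (3 to 5 with 1 library left out), and the 40 calls of all sites became 12 on log2 odds, 16 lower and 24 higher after centring, and 32 to 45 with 1 library left out. Directions turned only at differences that had not been called or were called no longer. Paraquat turned 18S Cm419 on log2 odds (-0.00165) and without sucrose replicate 3 or paraquat replicate 3 (range over libraries left out -0.00889 to 0.00761), and 28S Cm3422 on the third deposited score (9.61e-06). With 1 library left out the paraquat differences ran from -0.00229 to 0.00134 at 28S Gm2243, from -0.00341 to 0.000250 at 28S Gm2502 and from -0.00213 to 0.00201 at 28S Cm3422. Low-nutrient food turned 28S Gm2502 after centring (0.000618; with 1 library left out -0.00184 to 0.000343), and the set difference turned at 28S Cm3422 after centring (0.000838). The cause of these changes was not tested. Single libraries gave as few as 6 5′ ends at 18S Cm419 and 4 at 28S Cm3422, the latter with at least 139 3′ ends. The part of these low counts in the changes was not tested.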
